A study of Mus musculus with 4 samples.

Results

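Chemokines are small secreted or membrane-tethered proteins that guide the movement of cells, and the genes described here are 10 of them that microglia, neurons or stromal cells of the brain are known to make: Ccl2, Ccl3, Ccl4, Ccl6, Ccl9, Ccl12, Cxcl12, Cxcl14, Cxcl16 and Cx3cl1. They were chosen by name, with earlier results of these data known, and a gene's counts are the sum of the rows that carry its symbol. Of the 10 genes, 9 had a row among the 17578 genes of the table. Ccl2, the main ligand of the monocyte receptor Ccr2, had no row in the table used here and was not analysed here.

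The study sequenced RNA of the cortex from 12-month-old male mice, 2 mice of an APPswe/PS1ΔE9 line (APP), which goes back to the 85Dbo/Mmjax transgenic on a B6.Cg background, and 2 wild type C57BL/6J mice (WT). The APP mice carry an APP transgene with the Swedish mutations and a human PS1 transgene without exon 9. Both are driven by the mouse prion protein promoter, so that App and Prnp counts can include transgene reads. The WT mice carry neither transgene and received no other treatment in the labels. Libraries APP.3 and APP.4 held 28525117 and 31392983 counts, and libraries WT.1 and WT.2 held 43881196 and 35623228.

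The labels were first checked against the counts. App was at 2680 and 2390 CPM (counts in a library scaled to 1000000) in APP.3 and APP.4 against 857 and 905 in WT.1 and WT.2. Prnp was at 1860 and 1620 CPM in the APP libraries against 526 and 535 in the WT libraries. Both genes separated the groups in the way that the genotypes set. Of 13 neuronal markers, 13 had counts in every library, and Snap25, the most abundant of them per length, had a mean of 1840 CPM (SD 183, n = 2) for APP and 2010 (SD 17.3, n = 2) for WT. The choroid plexus markers Folr1 and Otx2 had no row, and the most abundant choroid marker per length, Ttr, averaged 0.949 ± 0.656 CPM in APP and 1.12 ± 0.971 in WT.

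Chemokines are grouped by the spacing of their first cysteines. CC ligands such as Ccl3 and Ccl4 are released by activated microglia, while Ccl6 and Ccl9 are rodent ligands of Ccr1. Among CXC ligands, Cxcl12 signals through Cxcr4 and is captured by Ackr3, and Cxcl16 is a membrane-tethered ligand of Cxcr6. Cx3cl1, or fractalkine, is made by neurons, and its receptor Cx3cr1 is carried in the brain mainly by microglia.

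The stretch of coding sequence around these cysteines is shown for 8 of the 9 genes, because it is what places a gene in its class. Each was read from the most counted protein-coding transcript of GENCODE M21, with coordinates on GRCm38. The capitals mark the codons of the first cysteine pair, and 15 bases are given on either side. The codons are adjacent in the CC genes, 1 codon apart in the CXC genes and 3 codons apart in Cx3cl1. Each stretch lies within a single coding exon, except that of Cxcl14, which is joined across an intron.
Ccl4 (chr11:83663467-83663502, plus strand): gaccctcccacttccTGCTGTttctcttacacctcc
Ccl6 (chr11:83589371-83589406, minus strand): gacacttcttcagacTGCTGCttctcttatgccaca
Ccl9 (chr11:83575911-83575946, minus strand): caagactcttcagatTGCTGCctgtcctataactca
Ccl12 (chr11:82102619-82102654, plus strand): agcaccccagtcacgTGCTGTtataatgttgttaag
Cxcl12 (chr6:117171493-117171531, plus strand): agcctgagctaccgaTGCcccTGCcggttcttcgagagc
Cxcl14 (chr13:56295900-56296116, minus strand): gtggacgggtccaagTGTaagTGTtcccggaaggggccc
Cxcl16 (chr11:70459112-70459150, minus strand): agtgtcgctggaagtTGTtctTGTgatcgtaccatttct
Cx3cl1 (chr8:94778036-94778080, plus strand): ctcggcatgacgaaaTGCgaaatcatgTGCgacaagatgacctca

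The 5 CC genes lie on chromosome 11. Ccl9 (chr11:83572919-83578636), Ccl6 (chr11:83587882-83593087) and Ccl3 (chr11:83647844-83649355) are on the minus strand, and Ccl4 (chr11:83662584-83664683) and Ccl12 (chr11:82101845-82103400) are on the plus strand. Cxcl16 is on the same chromosome (chr11:70453983-70459984, minus strand). Cxcl12 (chr6:117168535-117181367, plus strand), Cxcl14 (chr13:56288643-56296551, minus strand) and Cx3cl1 (chr8:94772009-94782427, plus strand) lie elsewhere. Between coding sequences of the CC genes, the closest pairs were Ccl6 and Ccl9, with 69.3% identity over 342 aligned bases, and Ccl3 and Ccl4, with 67.0% over 273. Of the windows of 100 bases taken every 5 bases along the 9 genes' transcripts, 0 matched a transcript of another gene with up to 7 mismatches, except in Ccl9. In Ccl9, 15 of 582 windows (2.58%) did so, all between bases 1435 and 1610 of its transcript, and they matched transcripts of 879 genes. In the annotation, the only gene with an exon over an exon of any of the 9 was Zmynd15, on the strand opposite to Cxcl16, and it had no row.

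In APP cortex 2 of the 9 chemokines, Ccl3 and Ccl6, were higher than in WT past both cut-offs, a false discovery rate (FDR) below 0.05 together with a difference of 1.5-fold or more. The test was edgeR's quasi-likelihood test over all 17578 genes with Benjamini-Hochberg adjustment. None of the 9 passed in the lower direction. Over all genes 177 passed, which is 1.01%, and 169 of them (0.961%) were higher in APP. The chemokines were chosen with earlier results of these data known, so their share is not that of an unselected set. The count over all genes depended on single libraries, with 590 without APP.3, 455 without APP.4 and 113 without WT.1, and that of the chemokines was 4 without APP.4. The groups did not overlap for 6 of the 9 chemokines, against 42.9% of all genes. The 9 had a median log2 fold change of 0.22, and all genes had a median of 0.00. With Ccl3 and Ccl4 put at the lower end of their counting intervals, the middle gene of the 9 is still Cxcl14. An exact two-sided permutation test of 2 against 2 libraries cannot give a p below 0.333, so the p-values given here rest on edgeR's model of the counts. All rows of the table had at least 10 counts over the 4 libraries. Each of the 9 chemokines also reached 10 counts within a library, so the minimum may have been set for single libraries. Ccl3 and Ccl4 met this minimum through their APP counts, so that low genes enter the table more easily when they are high in a group. Each group was 2 mice, and p-values rest on the spread between these mice together with a spread that edgeR shares across all genes. In bulk cortex, more cells of a type and more RNA per cell cannot be told apart. The reads carry no molecular identifiers, so intervals from counts cover counting error only.

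**Figure D1:**
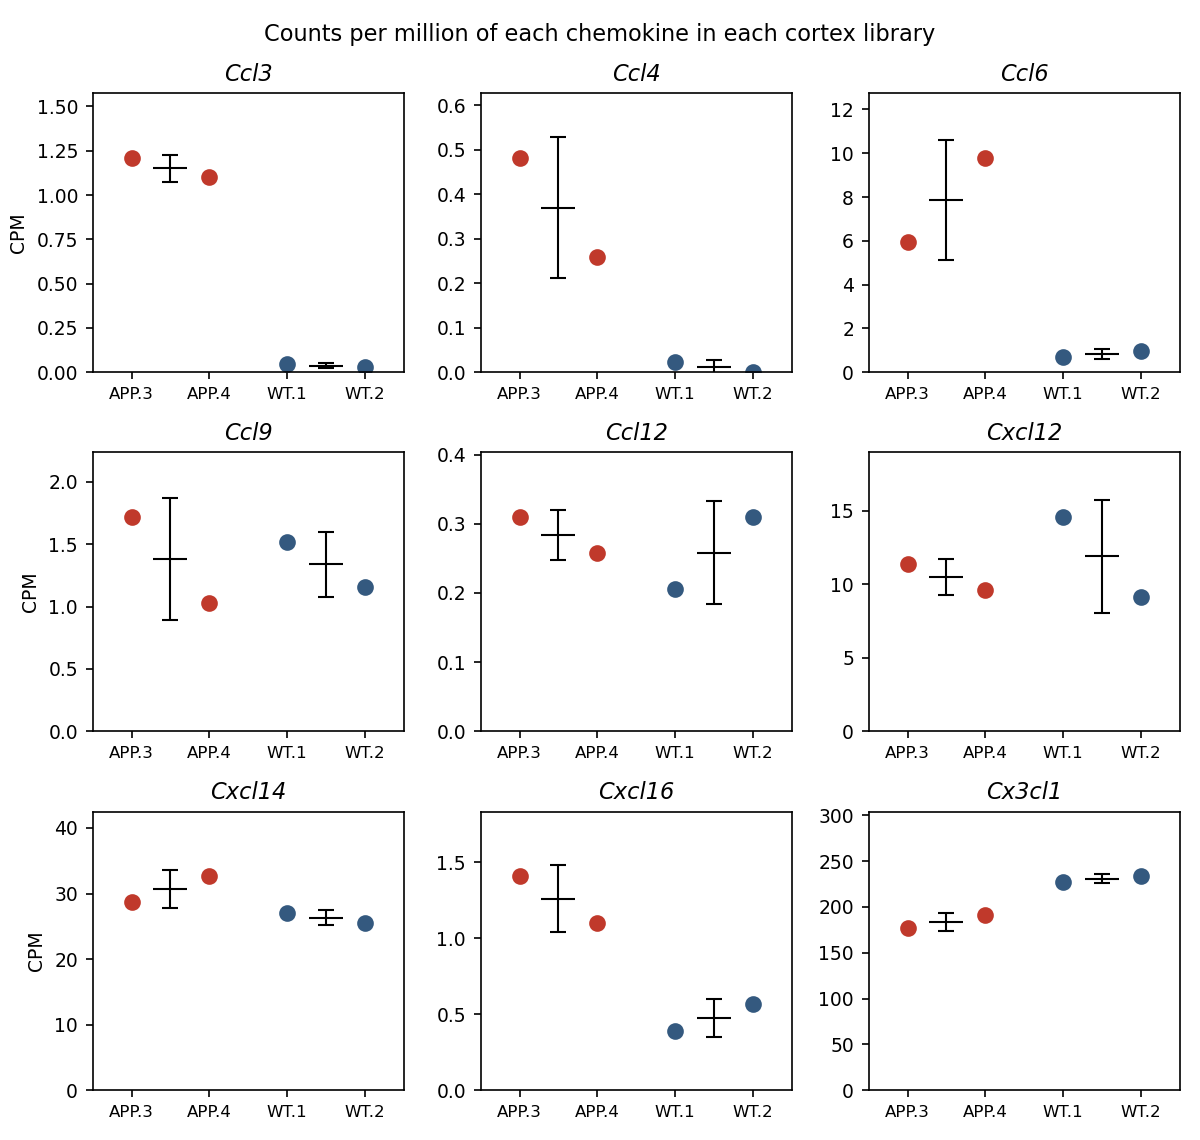
CPM of the 9 chemokines in each library (red APP, blue WT), on linear axes that start at 0, with the group mean and SD between the points (n = 2). The APP libraries of Ccl6 are at 5.93 and 9.79 CPM and the WT libraries at 0.683 and 0.987, while the groups of Ccl9, Ccl12 and Cxcl12 overlap.

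Among the 5 CC genes of the 9, Ccl6 was the most counted in APP cortex. Its counts were 172 (APP.3) and 303 (APP.4), against 30 (WT.1) and 35 (WT.2). As CPM this was 5.93 and 9.79 in APP against 0.683 and 0.987 in WT. Both APP libraries were above both WT libraries, and APP.4 was the higher of the APP libraries. The means were 7.86 ± 2.73 CPM in APP and 0.835 ± 0.215 in WT. The log2 fold change was 3.25 with a standard error of 0.30, a 9.51-fold difference (FDR = 0.00158). It passed both cut-offs under every alternative setting that kept all 4 libraries, some of which reuse the main fit. Its log2 fold changes were 2.84 to 3.57 when single libraries were left out.

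Ccl3, also known as MIP-1 alpha, had 35 (APP.3) and 34 (APP.4) counts, against 2 (WT.1) and 1 (WT.2). The APP libraries were close to each other, and WT cortex was near the limit of detection at this depth. The mean was 1.15 ± 0.0759 CPM in APP and 0.0369 ± 0.0122 in WT. With 69 counts against 3, the ratio of APP to WT was 30.5, with an exact 95% interval of 10 to 151. The fitted log2 fold change was 4.81 with a standard error of 0.59 (FDR = 0.00747). Ccl3 passed both cut-offs under each alternative on all 4 libraries that could test it, some of which reuse the main fit. It could not be tested where every library had to hold 10 counts. Without single libraries its log2 fold change ran from 4.56 to 5.17.

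Ccl4, or MIP-1 beta, is the neighbour of Ccl3 on the chromosome. Its counts were 14 (APP.3), 8 (APP.4), 1 (WT.1) and 0 (WT.2). The groups did not overlap, and the ratio of 22 counts to 1 was 29.1, with an exact 95% interval of 4.71 to 1200. Its fitted log2 fold change of 4.53 had a standard error of 1.10, and it did not pass the test (FDR = 0.110). The call depended on the test and on library APP.4: edgeR's exact test gave an FDR of 0.000375, the likelihood ratio test 0.000289 and the fit without APP.4 0.00984. Over all alternatives the FDR of Ccl4 ran from 0.000289 to 0.402. The fitted value was 3.82 without WT.2 and 6.57 without WT.1, where WT had no count left and the fit rests on its prior count.

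Ccl9 and Ccl12, the other CC genes of the 9, gave no such difference. Ccl9 had counts of 50 and 32 in APP, and of 67 and 41 in WT, or 1.38 ± 0.487 CPM against 1.34 ± 0.260. Its groups overlapped, and its log2 fold change was 0.03 with a standard error of 0.33 (FDR = 0.988). It was negative without APP.3, at -0.38, or without WT.2, at -0.15. Ccl12, a rodent ligand of Ccr2, had counts of 9 and 8 in APP, and of 9 and 11 in WT. Its log2 fold change was 0.16 with a standard error of 0.60 (FDR = 0.955), and -0.13 without WT.1. With 17 counts against 20, the exact 95% interval of its ratio ran from 0.554 to 2.26, from counting error alone.

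Ccl6 and Ccl9 share coding sequence most closely, but were counted very differently in APP. Their promoters, and that of Ccl3, are given for this reason. The windows run from 250 bases before to 50 bases after the gene start of their source, which for Ccl3 lies upstream of the start given above. They come from a set of RefSeq promoter windows (GRCm38.p6), in which 7 of the 10 genes had an entry. Ccl2, Ccl4 and Cxcl16 had none in the set used here. The windows are at chr11:83649329-83649628 for Ccl3, chr11:83593038-83593337 for Ccl6 and chr11:83578587-83578886 for Ccl9, all on the minus strand. Capitals mark matches on either strand to 4 motifs, GGNNTTTCC for NF-kB, TGANTCA for AP-1, GAGGAAGT for PU.1 and TTNCNNAA for C/EBP.
Ccl3: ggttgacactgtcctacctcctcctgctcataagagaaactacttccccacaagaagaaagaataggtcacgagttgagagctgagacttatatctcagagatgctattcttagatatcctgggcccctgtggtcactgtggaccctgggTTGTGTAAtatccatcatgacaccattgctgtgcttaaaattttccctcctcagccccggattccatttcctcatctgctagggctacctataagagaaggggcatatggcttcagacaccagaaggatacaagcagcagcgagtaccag
Ccl6: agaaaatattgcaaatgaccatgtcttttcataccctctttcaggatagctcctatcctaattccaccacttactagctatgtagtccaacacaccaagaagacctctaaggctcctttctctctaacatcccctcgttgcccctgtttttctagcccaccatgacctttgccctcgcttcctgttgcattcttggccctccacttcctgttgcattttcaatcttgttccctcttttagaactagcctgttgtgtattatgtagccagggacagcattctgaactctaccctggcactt
Ccl9: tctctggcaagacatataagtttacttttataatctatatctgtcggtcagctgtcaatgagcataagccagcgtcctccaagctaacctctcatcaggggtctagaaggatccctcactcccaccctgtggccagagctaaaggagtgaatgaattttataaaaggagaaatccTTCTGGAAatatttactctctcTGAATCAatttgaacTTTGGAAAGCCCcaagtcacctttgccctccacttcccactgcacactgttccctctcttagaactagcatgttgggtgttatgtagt

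The Ccl3 window held 1 C/EBP match, 100 bases before the start that its window uses, and the Ccl6 window held 0 matches of any of the 4 motifs. The Ccl9 window held 1 match for NF-kB, 1 for AP-1 and 2 for C/EBP, of which the second overlaps the NF-kB match. The other 4 windows, of Ccl12, Cx3cl1, Cxcl12 and Cxcl14, held 0. Over all 32851 promoter windows of the table, 5.82% held the NF-kB motif, 7.81% the AP-1 motif, 3.20% the PU.1 motif and 40.7% the C/EBP motif. Among the 7 chemokine windows these were 1, 1, 0 and 2. Ccl6 and Ccl9 shared a stretch across the gene start, with 86.6% identity over 67 aligned bases. A match describes letters only, and binding was not measured.

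Of the 3 CXC genes among the 9, Cxcl16 had the only difference of more than 1.5-fold. Its counts were 41 (APP.3) and 34 (APP.4) against 17 (WT.1) and 20 (WT.2), and the groups did not overlap. The means were 1.26 ± 0.222 CPM in APP and 0.475 ± 0.125 in WT. Its log2 fold change of 1.41 with a standard error of 0.38, or 2.65-fold, did not pass the test (FDR = 0.149). It passed under edgeR's exact test (FDR = 0.0246), the likelihood ratio test (FDR = 0.0160) and without APP.4 (FDR = 0.0318), in a range of 0.0160 to 0.641 over all alternatives.

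Cxcl14, which interneurons of the cortex express, was the most counted of these 3 CXC genes. It had counts of 832 and 1012 in APP, and of 1190 and 903 in WT, which was 28.7 and 32.7 CPM against 27.1 and 25.5. The APP libraries were slightly above the WT libraries. The log2 fold change was 0.22 with a standard error of 0.09 (FDR = 0.339).

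Cxcl12, known as SDF-1 and made by endothelial, meningeal and some neuronal cells, had counts of 330 and 297 in APP, and of 643 and 325 in WT. This was 11.4 and 9.60 CPM against 14.6 and 9.17, so WT.1 stood above the other libraries and the groups overlapped. The log2 fold change was -0.19 with a standard error of 0.20 (FDR = 0.791), and it was 0.19 without WT.1. Cxcl12 was counted on 3 transcripts. Cxcl12-201, with a coding sequence of 357 bases, had counts of 177 and 150 in APP, and of 360 and 169 in WT. Cxcl12-202, whose coding sequence is 267 bases, had 153 and 141 against 272 and 152. Both coding transcripts were highest in WT.1. The retained-intron transcript Cxcl12-204 had between 0 and 11 counts in a library.

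Cx3cl1 was the most abundant chemokine of the 9 in every library. Its counts were 5135 (APP.3), 5902 (APP.4), 9994 (WT.1) and 8312 (WT.2), or 177 and 191 CPM in APP against 227 and 234 in WT. Both APP libraries were below both WT libraries, with means of 184 ± 9.74 CPM and 231 ± 4.97. The log2 fold change was -0.33 with a standard error of 0.07, which is 1.26-fold higher in WT (FDR = 0.0590), so neither cut-off was passed. It stayed negative under all 13 alternatives, some of which reuse the main fit, from -0.38 to -0.28, with a difference below 1.5-fold in each. With all 4 libraries kept, its FDR ran from 0.00331 to 0.0714 over the alternatives. Nearly all of its counts were on the coding transcript Cx3cl1-201, and between 16 and 26 in a library were on Cx3cl1-204, a transcript without coding sequence. The log2 fold changes of 13 neuronal markers ran from -0.29 for Slc17a7 to 0.38 for Syt1, with a median of -0.07 and 3 above 0, and 0 of them passed (edgeR, 1 at an unadjusted p under 0.05, 0 by DESeq2). The APP libraries of Syt1, at 1300 CPM in APP.3 and 662 in APP.4, were on either side of WT, at 765 and 743. Whether neuronal content has a part in the Cx3cl1 values was not tested.

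**Figure D2:**
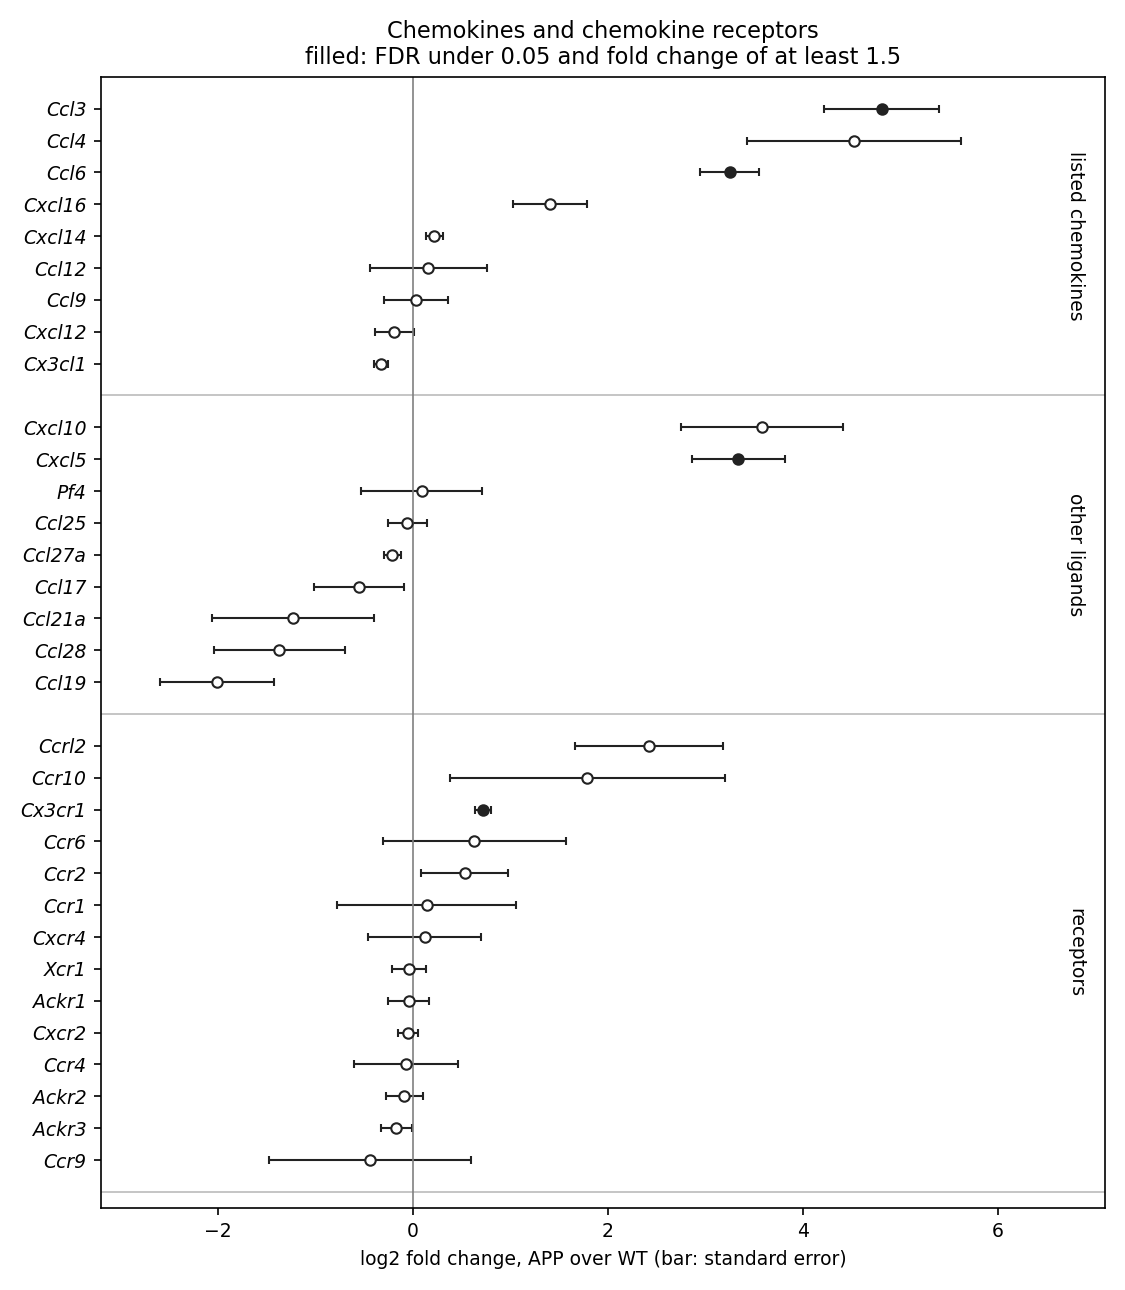
Log2 fold change of APP over WT with its standard error (edgeR, n = 2 per group) for 9 chemokines named at the start, 9 further ligands and 14 of the 15 receptors with a row, with filled points for those past both cut-offs. Filled points are Ccl3 at 4.81, Ccl6 at 3.25, Cxcl5 at 3.34 and Cx3cr1 at 0.72.

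Levels of different genes were compared per length, as CPM per kilobase of transcript. In WT cortex Cx3cl1 stood first at 70.9 ± 1.69, followed by Cxcl14 at 14.4 ± 0.623 and Cxcl12 at 4.0 ± 1.18. Ccl6 at 0.580 ± 0.15, Ccl12 at 0.480 ± 0.139 and Ccl9 at 0.446 ± 0.0866 came next, and neighbours among these 3 overlapped between libraries. Cxcl16 was at 0.176 ± 0.0464, and Ccl3 and Ccl4, at 0.0481 ± 0.0160 and 0.0172 ± 0.0244, came last on 3 counts and 1 count.

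In APP cortex the first positions were again Cx3cl1, at 56.5 ± 2.76, and Cxcl14, at 16.8 ± 1.56. Ccl6 came next at 5.46 ± 1.90, above Cxcl12 at 3.62 ± 0.380 and Ccl3 at 1.5 ± 0.0991. Each of these 5 was apart from the next in both APP libraries. Ccl4 at 0.561 ± 0.240, Ccl12 at 0.529 ± 0.0680, Cxcl16 at 0.465 ± 0.0823 and Ccl9 at 0.459 ± 0.162 followed, and neighbours among these 4 overlapped. Of the summed level of the 9 genes per length, Cx3cl1 made up 66.4% and 65.3% in the APP libraries and 76.6% and 79.1% in the WT libraries. Ccl6 made up 5.00% and 7.59% in APP against 0.521% and 0.753% in WT.

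**Figure D3:**
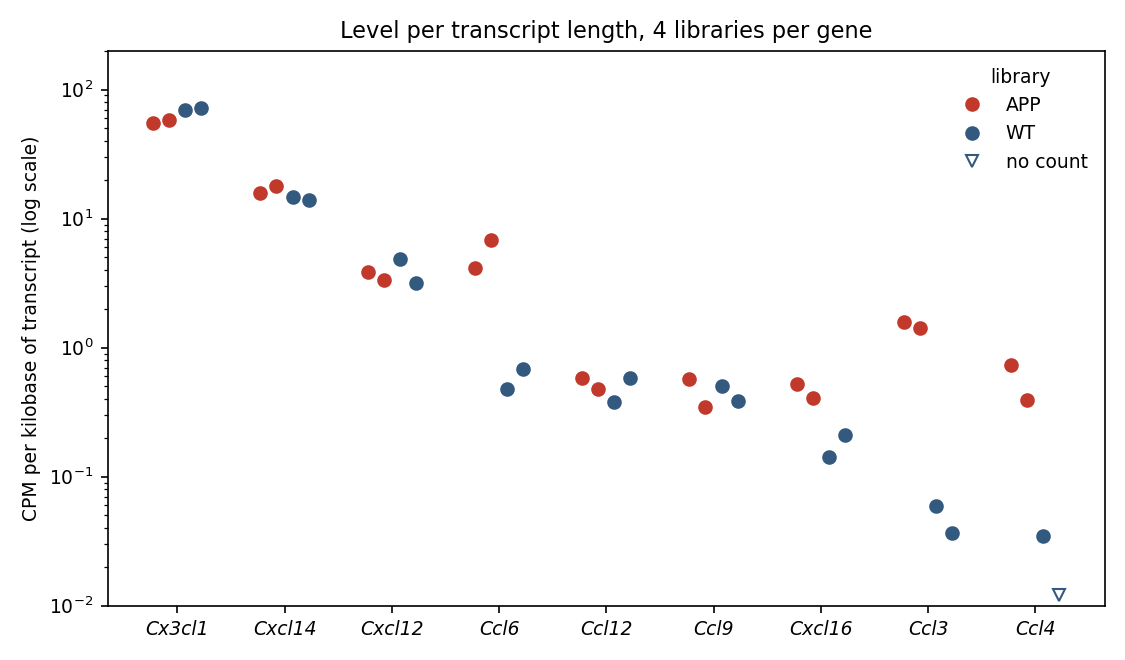
Level per transcript length of the 9 chemokines, in CPM per kilobase on a log axis, with a point per library (red APP, blue WT) and an open triangle where a library had no count. The WT mean runs from 70.9 for Cx3cl1 to 0.0172 for Ccl4, and Ccl6 lies below Cxcl12 in WT and above it in APP.

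Of 28 other chemokine ligands, 9 had a row, and 1 of them, Cxcl5, passed both cut-offs. Cxcl5 attracts neutrophils through Cxcr2. It had counts of 47 and 38 in APP, and of 8 and 3 in WT, with no overlap, and rose by a log2 fold change of 3.34 with a standard error of 0.48 (FDR = 0.0149). The means were 1.42 ± 0.277 CPM in APP and 0.133 ± 0.0689 in WT. No WT library of Cxcl5 reached 10 counts, so a minimum set for single libraries would be met through APP alone. The log2 fold change was 4.01 without WT.1 and 2.94 without WT.2, and Cxcl5 passed in both. Cxcl10, an interferon-induced ligand of Cxcr3, had 18 and 20 counts against 4 and 0, and its log2 fold change of 3.58 with a standard error of 0.83 did not pass (FDR = 0.0914, with 1.98e-05 to 0.286 over the alternatives). It was 2.75 without WT.2 and 7.34 without WT.1, where WT had no count left. Cxcl10 met the table's minimum of 10 counts through APP. The count for this list was 2, with Cxcl10 added, without APP.3, without APP.4 and with transcripts tested singly, and 3 in edgeR's exact and likelihood ratio tests, which also called Ccl19, lower in APP. Ccl19, a ligand of Ccr7, had counts of 4 and 4 in APP, and of 27 and 17 in WT (log2 fold change -2.01, standard error 0.58, FDR = 0.178). Ccl27a was the most abundant of this list, at 43.1 CPM per kilobase in APP and 50.1 in WT, and its log2 fold change was -0.21 (FDR = 0.405). The list had a median log2 fold change of -0.21. Ccl5, Ccl7, Ccl8, Cxcl1, Cxcl2, Cxcl9 and Cxcl13 were among the 19 without a row.

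Of 24 chemokine receptors 15 had a row, and 1 passed, Cx3cr1, the microglial receptor of Cx3cl1. It had counts of 975 and 1101 in APP, and of 881 and 777 in WT, with means of 34.6 ± 1.40 and 21 ± 1.32 CPM that did not overlap. The log2 fold change was 0.72 with a standard error of 0.08 (FDR = 0.00551), so that the receptor rose 1.65-fold while the log2 fold change of its ligand was -0.33. The 20 microglial markers described below had a median log2 fold change of 0.94 and a summed ratio of 1.85, both above the values of Cx3cr1. Whether microglial content has a part in the Cx3cr1 values was not tested. Among receptors per length, Cx3cr1 was also the most abundant in APP, at 9.22 CPM per kilobase, and in WT, at 5.59. Its WT libraries, at 5.34 and 5.84, overlapped those of Cxcr2, at 5.22 and 5.70, whose counts are uncertain.

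Ccr1 and Ccr2, receptors of CC ligands, did not pass. Ccr1, the receptor of Ccl3, Ccl6 and Ccl9, had counts of 14 and 1 in APP, and of 8 and 10 in WT, and its APP libraries were on either side of both WT libraries. Ccr2 had 23 and 17 against 24 and 13 (log2 fold change 0.53, standard error 0.45, FDR = 0.710). For Cxcl12, Cxcr4 had counts of 10 and 32 in APP, and of 38 and 14 in WT (log2 fold change 0.12, FDR = 0.965), and Ackr3 had 165 and 145 against 263 and 202 (log2 fold change -0.17, FDR = 0.739). Cxcr6, the receptor of Cxcl16, had no row in the table used here. Ccrl2, an atypical receptor that binds chemerin, had 11 and 14 counts against 5 and 1 (log2 fold change 2.42, standard error 0.76, FDR = 0.216). It met the table's minimum of 10 counts through APP, and edgeR's exact and likelihood ratio tests called it. The median over the 15 receptors was -0.04. They include Cxcr2, at 16.1 CPM in APP and 16.6 in WT, which was read by its identifier from a row that the table names Olfr575, so that its counts are uncertain.

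Chemokine receptors act through Gi proteins, PI3-kinase, Src-family kinases and Rac. Of 33 genes of this signalling, 32 had a row and 4 passed both cut-offs, all higher in APP: the Rac activators Vav1 and Dock2, the kinase Lyn and Ncf1, the p47 subunit of the phagocyte oxidase. Vav1 had counts of 133 and 163 in APP, and of 88 and 88 in WT, and its log2 fold change was 1.14 with a standard error of 0.19 (FDR = 0.0272). Dock2 had 230 and 347 counts against 207 and 159, with a log2 fold change of 1.06 (FDR = 0.0303). Lyn and Ncf1 had log2 fold changes of 0.78 (FDR = 0.0284) and 0.81 (FDR = 0.0296). These are genes of leukocytes and, in the brain, of microglia. The most abundant gene of the list per length was the G-protein subunit Gnb1, at 253 ± 0.475 CPM in APP and 262 ± 0.391 in WT, and the list's median log2 fold change was 0.15. The count depended on single libraries, with 7 genes past both cut-offs without APP.3, 0 genes past both cut-offs without WT.1 in the quasi-likelihood test, where 7 had an unadjusted p under 0.05, and 1 gene, Vav1, without WT.2, where 8 did. The log2 fold changes of Vav1, Dock2, Lyn and Ncf1 were 0.99, 1.09, 0.72 and 0.86 without WT.1, and those of Dock2, Lyn and Ncf1 were 1.03, 0.84 and 0.77 without WT.2.

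Proteases release and trim chemokines. Of 13 such genes 12 had a row, and 1 passed, the lysosomal protease Ctss, which cleaves fractalkine from neurons. Ctss averaged 119 ± 24.6 CPM in APP and 55.3 ± 3.44 in WT, with a log2 fold change of 1.11 and a standard error of 0.12 (FDR = 0.00498). Adam10, which sheds Cx3cl1 and Cxcl16, was at 103 ± 1.66 and 100 ± 2.55 CPM (log2 fold change 0.04, FDR = 0.861). Adam17 was at 20.9 ± 2.63 and 19.9 ± 0.166 CPM (log2 fold change 0.07, FDR = 0.845). Mmp12, a macrophage elastase, gave a log2 fold change of 0.04 as a gene, but nearly all of its counts were on a retained-intron transcript. Its coding transcript had counts of 16 and 6 in APP, and of 0 and 0 in WT, and so met the table's minimum of 10 counts through APP alone. It did not pass when transcripts were tested singly (FDR = 0.0518).

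Transcription of Ccl3 and Ccl4 is known to respond to NF-kB. Of 23 genes of that pathway 20 had a row and 1 passed, the receptor Tlr2, with counts of 74 and 91 in APP, and of 35 and 28 in WT. Its log2 fold change was 1.79 with a standard error of 0.25 (FDR = 0.0132). The subunits Rela and Nfkb1 had log2 fold changes of -0.07 (FDR = 0.931) and 0.08 (FDR = 0.822). The median over the list was 0.07, and Chuk was its most abundant gene per length. Tnf, Il6 and Bcl3 had no row. Without APP.3 the count was 4.

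Microglial genes were higher in APP as a list, and these values stand beside those of the CC chemokines. Of 20 microglial markers 20 had a row, 12 passed both cut-offs, all higher in APP, and the median log2 fold change was 0.94. Their summed level was 542 and 636 CPM in APP.3 and APP.4 against 318 and 320 in WT.1 and WT.2, a ratio of 1.85. The largest log2 fold changes of the list were 2.08 for Tyrobp and 1.97 for Cd68, and Tmem119 was lowest at 0.30 (FDR = 0.573). No marker of this list had a library at 0.

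The chemokines can be read against this list within each library. Per 1000 CPM of the summed microglial markers, Ccl6 was at 10.9 and 15.4 CPM in APP against 2.15 and 3.09 in WT, a ratio of 5.03. On the same scale Ccl3 was at 2.23 and 1.73 against 0.143 and 0.0883, where WT again rests on 3 counts. Cxcl5 was at 2.99 and 1.93 against 0.573 and 0.265. Cxcl16 was at 2.61 and 1.73 against 1.22 and 1.77, so its groups overlapped once divided by the markers. The ratio of group means was 18.1 for Ccl4, on 1 WT count, and below 1 for the other 5, with 0.571 for Ccl9, 0.606 for Ccl12, 0.483 for Cxcl12, 0.633 for Cxcl14 and 0.432 for Cx3cl1. The divisor is itself 1.85 times as high in APP, so a gene with equal CPM in both groups has a ratio below 1 on this scale. Cxcl14, slightly higher in APP as CPM, is lower here for that reason. These are ratios within libraries and were not tested.

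Other sources of these chemokines were read from their markers. Of 13 markers of monocytes and border macrophages 10 had a row, 0 passed, and the median log2 fold change was -0.07, with summed levels of 74.1 and 76.1 CPM in APP against 70.2 and 64.0 in WT. Vcan, the most abundant per length, and Fn1 made up most of that sum and are also made by other cells of the brain. The monocyte markers Plac8 and Chil3 were among those without a row, and Ly6c2 had counts of 10 and 11 in APP, and of 19 and 17 in WT. Of 9 neutrophil markers 2 had a row, S100a8 and S100a9, with a median of 0.93 from between 3 and 14 counts in a library and a summed level of 0.276 and 0.872 CPM in APP against 0.364 and 0.254 in WT, while Ly6g, Camp, Ngp, Mpo, Elane, Retnlg and Mmp8 had none. Of 13 markers of T and NK cells 5 had a row, Cd3d being the most abundant per length, with a median of 0.22 and summed levels of 4.51 and 8.21 CPM in APP against 4.94 and 5.44 in WT. Cd3e, Cd3g, Trac, Cd2, Nkg7, Gzma, Gzmb and Klrb1c had none.

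Endothelial and stromal cells make Cxcl12, and their markers are given here for that reason. All 11 endothelial markers had a row, with a median of -0.07 and summed levels of 117 and 117 CPM in APP against 123 and 116 in WT, Slco1a4 being the most abundant per length. All 16 markers of mural cells and fibroblasts had a row, with a median of -0.13. Their sums were 164 and 163 CPM in APP against 169 and 151 in WT. Vtn was the most abundant of them per length. The neuronal sums were 5750 and 4990 CPM in APP against 5490 and 5460 in WT. Syt1 is part of these sums, at 1300 CPM in APP.3 and 662 in APP.4 against 765 and 743 in WT.

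In the lists of monocytes and border macrophages, neutrophils, T and NK cells, neurons, endothelium, and mural cells and fibroblasts, 0 genes passed both cut-offs in edgeR's quasi-likelihood test. The numbers at an unadjusted p under 0.05 were 1, 0, 1, 1, 0 and 2. DESeq2, edgeR's exact test and its likelihood ratio test called 0 in each of these lists. The part of any cell type in the chemokine values was not tested.

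**Figure D4:**
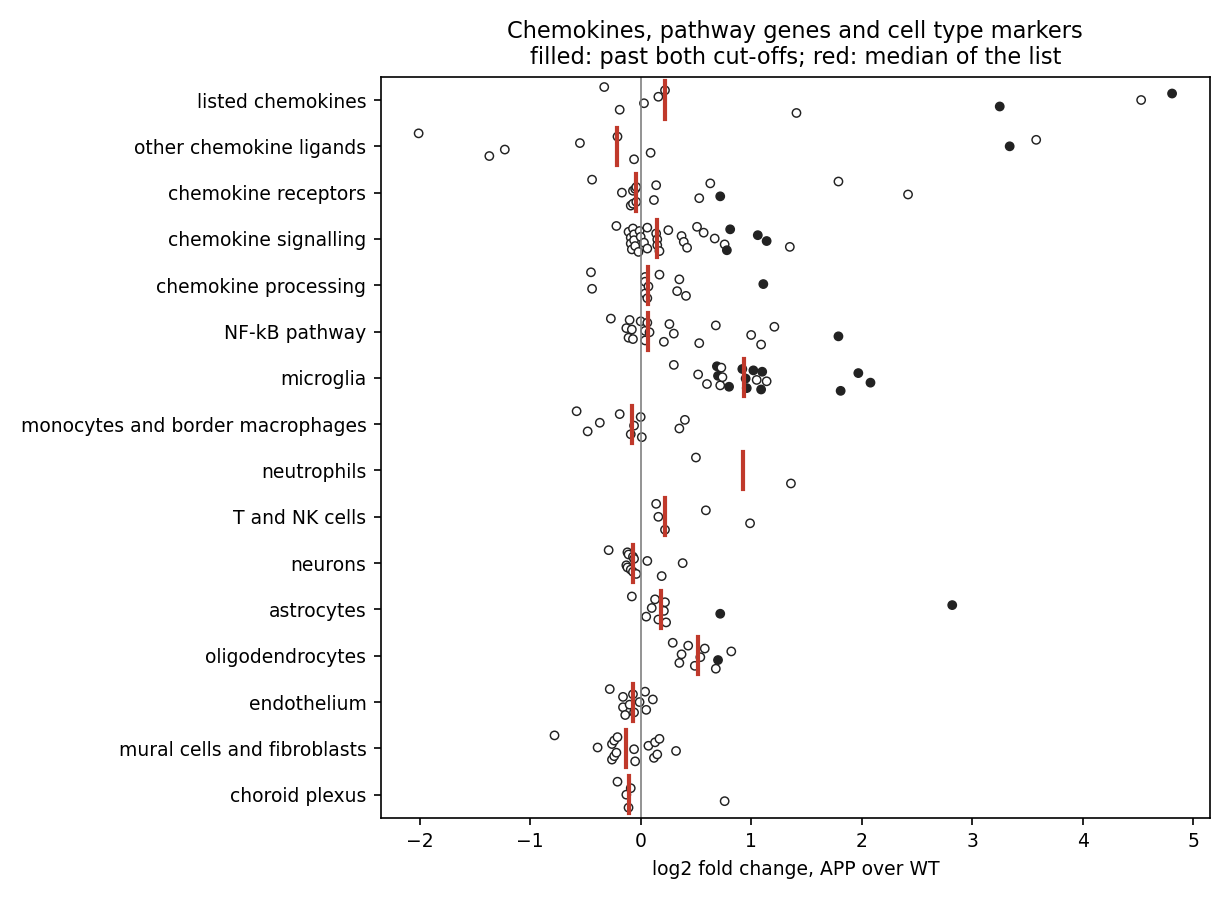
Log2 fold change of APP over WT for each gene with a row (points, filled when past both cut-offs) by list, with the list's median as a red line. The medians of microglia and of the 2 neutrophil genes are at 0.94 and 0.93, while those of neurons, endothelium and monocytes and border macrophages are each at -0.07.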

How the data were processed

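The samples were cortex RNA of 2 APP and 2 WT mice, freed of ribosomal RNA and read as strand-specific pairs. Reads were assigned to Ensembl transcripts by FANSe2, with a limit of 7 mismatches, once pairs that mapped to the SILVA database had been taken out. The authors deposited the read count of each of 37539 transcripts without normalization. The Ensembl release is not given in the sources used here. The submitters' processing notes list CASAVA 1.8, edgeR and the human build hg19. The deposited table also holds 4 columns of CPM, a column for each library, and the authors' fold change, mean level, p-value and FDR of each transcript, and none of these was used. Numbers link each WT column to its mouse, while for APP columns only the group is known.

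Counts were added up by the symbol in the table, ignoring case. The 8274 rows without a symbol took that of other transcripts of their gene or the symbol in GENCODE M21, which held 36845 of the transcripts and gave the names printed. The other 694 carried 0.868% of counts. For the 9 chemokines, symbol and GENCODE identifier gave the same rows. The quasi-likelihood test of edgeR was applied to the counts of all 17578 genes (TMM normalization, no covariate, Benjamini-Hochberg adjustment), and CPM use the TMM library sizes. The fit was checked on simulated counts. The alternatives comprised edgeR's exact test, its likelihood ratio test, DESeq2, library totals, other filters, a fold change of 2, transcripts, and each library left out. Genes by GENCODE identifier, and all alternatives for the marker genes and for single genes other than the 9 chemokines, were added after seeing the data. Ratios with 95% intervals are exact for counts. Software was R 4.3.3, edgeR 4.0.16, DESeq2 1.42.0, Python 3.11.15, pandas 2.3.3, scipy 1.17.1, Biopython 1.88 and blastn 2.17.0.

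The chemokines and all gene lists were chosen with earlier results of these data known. The genes named are the 10 chemokines, the genes of the other ligand, receptor, signalling, processing and NF-kB lists that passed both cut-offs, the receptors Ccr1, Ccr2, Cxcr4, Ackr3, Cxcr6 and Cx3cr1, the most abundant gene of each marker list except that of microglia, up to 3 others of each list, App, Prnp, Gapdh and Actb. Genes given by name as having no row belong to these lists. Cxcl10, Ccl19, Ccl27a, Ccrl2, Cxcr2, Gnb1, Adam10, Adam17, Mmp12, Rela, Nfkb1 and Chuk were chosen after their values were seen.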

Additional observations from a re-analysis of the deposited data

How the results depend on the processing

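Of 114 comparisons of the 9 chemokines with an alternative, 104 kept their direction and their side of the cut-offs, 6 moved past them and 4 changed sign. Those that changed sign were far from the cut-offs and came from leaving out a library, with log2 fold changes from -0.38 to 0.35 for Ccl9, -0.13 to 0.47 for Ccl12 and -0.48 to 0.19 for Cxcl12. Part of the agreement was fixed in advance. The setting without a filter repeats the main fit, since every row already held 10 counts, and the fold change of 2 reuses that fit. Genes by GENCODE identifier had the same counts for the 9. The chemokines past both cut-offs numbered 4 in edgeR's exact and likelihood ratio tests, which added Ccl4 and Cxcl16, and 1 with at least 10 counts in every library, where 6 were tested and Ccl3, Ccl4 and Ccl12 were not. They ran from 2 to 4 with single libraries left out. All genes numbered 354 in the exact test, 390 in the likelihood ratio test, 98 at a fold change of 2, 283 by transcript, and 113 to 590 without single libraries, in place of 177. Other ligands numbered 3 in the exact and likelihood ratio tests, 0 of 3 tested with at least 10 counts in every library (edgeR, 0 at an unadjusted p under 0.05), 2 by transcript, and 1 to 2 without single libraries. Receptors numbered 2 in the exact and likelihood ratio tests and 0 at a fold change of 2 (2 at an unadjusted p under 0.05). Signalling genes numbered 2 at a fold change of 2 and 0 (7 at an unadjusted p under 0.05) to 7 without single libraries. NF-kB genes numbered 2 in the exact and likelihood ratio tests and 1 to 4 without single libraries. Marker genes, 15 of 102, numbered 7 at a fold change of 2 and 11 to 25 without single libraries. A higher fold change or fewer tested genes lowers these counts by construction, and the cause of the other shifts was not tested. A group left with a single library is assumed to vary like the other. DESeq2, library totals and genes by GENCODE identifier gave counts within 1.5 times of those reported. Genes by GENCODE identifier and all alternatives for marker genes and for single genes other than the 9 were chosen after seeing the data. No paired analysis was possible because the APP columns carry the numbers 3 and 4, which match no number in the titles. Genes under 10 counts in a library, Ccl3, Ccl4 and Ccl12 among the 9, are limited by depth.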

Other observations

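Some glial markers outside the chemokine comparison passed both cut-offs. Of 10 astrocyte markers 10 had a row and 2 passed both cut-offs, both higher in APP. Gfap had a mean of 350 CPM (SD 32.1, n = 2) for APP and 49.6 (SD 3.79, n = 2) for WT, and its log2 fold change of 2.82 with a standard error of 0.09 was the largest of the list. Aqp4, the water channel of astrocyte endfeet, had a log2 fold change of 0.72 (edgeR, FDR = 0.00301). Slc1a2 was the most abundant astrocyte marker per length, and the median of the list was 0.19. The summed levels were 4820 and 5200 CPM in APP against 4330 and 3970 in WT.

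Of 10 oligodendrocyte markers 10 had log2 fold changes above 0, with a median of 0.51, and 1 passed both cut-offs, the myelin glycoprotein Mag, at 0.70 (edgeR, FDR = 0.0149). Mbp, the most abundant per length, averaged 526 ± 37.5 CPM in APP and 430 ± 27.9 in WT (FDR = 0.146). The summed levels were 1900 and 1650 CPM in APP against 1220 and 1360 in WT. Of 7 choroid plexus markers 5 had a row, with a median of -0.11 and sums of 7.27 and 7.95 CPM in APP against 5.76 and 7.95 in WT. In edgeR's quasi-likelihood test 0 of them passed both cut-offs and 0 had an unadjusted p under 0.05, and DESeq2 and edgeR's exact and likelihood ratio tests called 0. Gapdh averaged 502 ± 35.4 CPM in APP and 537 ± 2.54 in WT, and Actb 867 ± 38.3 and 865 ± 48.7, and neither passed the test (FDR = 0.635 and 0.994).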
